A study of Mus musculus with 4 samples.

Results

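The genes described here encode 50 subunits of 4 chromatin complexes: Polycomb repressive complexes 1 and 2 (PRC1 and PRC2), NuRD and BAF. They were chosen by gene symbol from a list of known subunits, and all 50 were found among the 47633 genes of the deposited table. By complex, 8 belong to PRC2, 17 to PRC1, 11 to NuRD and 12 to BAF, and 2 are histone chaperones shared by PRC2 and NuRD. Transcript levels were measured by RNA sequencing of total RNA in 4 libraries of mouse cells of strain 129S2/SvPas, whose cell type the labels give as 21-24. Of these, 2 libraries (ES 1 and ES 2) came from embryonic stem (ES) cells, pluripotent cells kept in serum with leukaemia inhibitory factor (LIF) on mitomycin-treated C57/BL6 embryonic fibroblasts. Another came from cells 2 days after LIF was withdrawn. The last was labelled embryoid body (EB), an aggregate of differentiating cells, after 5 days without LIF. No library carries a named mutation, and neither derived state had a replicate. Nothing in the labels states that ES 1 and ES 2 were separate cultures. The p-values therefore reflect only how far these samples differed, and that spread may be technical.

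PRC2 methylates histone H3 at lysine 27 (H3K27), and PRC1 ubiquitinates histone H2A. Together they keep developmental genes silent in ES cells. NuRD couples an ATP-driven nucleosome remodeller to histone deacetylases, and BAF is the mammalian SWI/SNF remodeller that opens chromatin. Each complex includes families of paralogs, some of which exclude one another. An exchange of one such paralog for another, a subunit switch, can change a complex without changing its total amount. Known examples in differentiation are the replacement of Cbx7 by other CBX readers in PRC1 and the exchange of BAF subunits in neural cells.

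Values are FPKM, fragments scaled by gene length and by library total, so levels can be compared between genes. In bulk RNA, fewer cells of a type and less RNA per cell cannot be told apart. Estimated depth ran from 18.1 to 31.5 M fragments. In the LIF withdrawal library 44.7% of the FPKM sum lay in 10 genes, against 9.8 to 17.4% in the others. The 8 ES cell markers were at 1 FPKM or more in every library, and their summed level was 2208, 2215, 2317 and 2734 FPKM in ES 1, ES 2, the LIF withdrawal library and the EB library. After LIF withdrawal 5 of the 8 lay below both ES libraries and 2 above, and in the EB library 3 below and 5 above. The 16 fibroblast markers summed to 38.5, 39.1, 100.6 and 65.3 FPKM. After LIF withdrawal 15 of them exceeded both ES libraries, and in the EB library 9 did. At 1 FPKM or more were 11, 10, 12 and 13 of the 16, and only Fap, a fibroblast surface protease, was listed at 0 in both ES libraries. What feeder cells contributed to any result below was not tested.

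The sequences of 4 promoters are shown because the subunits they serve, 2 PCGF proteins and 2 CBX readers of PRC1, make up the paralog pairs whose ratios moved furthest in the EB library. Each is the 250 bases before a RefSeq transcript start (GRCm38.p6), read 5′ to 3′ on the gene's strand, with CG dinucleotides in capitals. The Bmi1 promoter lies at chr2:18676768-18677017 on the plus strand. On the minus strand lie those of Pcgf2 at chr11:97699649-97699898, Cbx8 at chr11:119040914-119041163 and Cbx7 at chr15:79932647-79932896.
Bmi1: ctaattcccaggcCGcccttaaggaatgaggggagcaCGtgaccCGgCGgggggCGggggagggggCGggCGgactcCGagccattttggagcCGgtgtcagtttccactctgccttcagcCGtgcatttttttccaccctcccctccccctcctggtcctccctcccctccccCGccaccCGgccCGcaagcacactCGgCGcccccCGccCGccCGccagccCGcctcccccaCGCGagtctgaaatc
Pcgf2: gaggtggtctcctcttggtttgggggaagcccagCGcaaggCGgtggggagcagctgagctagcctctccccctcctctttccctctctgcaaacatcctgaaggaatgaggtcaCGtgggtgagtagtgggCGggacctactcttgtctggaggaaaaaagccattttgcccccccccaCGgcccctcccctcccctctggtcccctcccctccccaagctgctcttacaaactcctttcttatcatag
Cbx8: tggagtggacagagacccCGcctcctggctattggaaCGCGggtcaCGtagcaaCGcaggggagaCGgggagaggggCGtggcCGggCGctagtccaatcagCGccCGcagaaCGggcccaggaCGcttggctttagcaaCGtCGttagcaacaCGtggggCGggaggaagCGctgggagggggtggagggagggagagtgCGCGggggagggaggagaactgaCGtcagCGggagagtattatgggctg
Cbx7: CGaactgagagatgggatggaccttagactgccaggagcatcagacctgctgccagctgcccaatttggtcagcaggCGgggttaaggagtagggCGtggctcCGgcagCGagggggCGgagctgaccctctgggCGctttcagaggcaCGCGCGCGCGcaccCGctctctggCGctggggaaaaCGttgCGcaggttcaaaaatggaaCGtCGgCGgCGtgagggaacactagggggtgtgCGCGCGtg
They hold 21, 5, 22 and 23 CG dinucleotides in that order. None contains the letters TATAAA on either strand. Among the promoters in the RefSeq table, 41 of the 50 genes had 55, with a median of 23 CG and with 10 or more in 90.9%. Over all 32851 promoters of this length the median was 6 CG, and 37.8% held 10 or more. The 32851 promoters came from 27025 genes, not chosen by expression, and expressed genes alone were not compared. TATAAA, searched on both strands, was in 3.64% of the subunit promoters and in 12.4% of all.

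In ES cells the transcripts of these subunits differed widely in level. Of the 50 genes, 49 reached 1 FPKM in all 4 libraries and 34 reached 10 FPKM in all. Only Cbx8, a CBX reader of H3K27 methylation, was under 1 FPKM in ES cells. Above 100 FPKM in both ES libraries stood 11 genes, led by Phc1, the polyhomeotic scaffold of canonical PRC1, at 331 and 333 FPKM. ES 1 and ES 2 lay within 1.3-fold of each other for 49 genes, and the exception was Cbx8. The plot of levels by library shows that 1 paralog dominated most families in all 4 libraries.

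**Figure D1:**
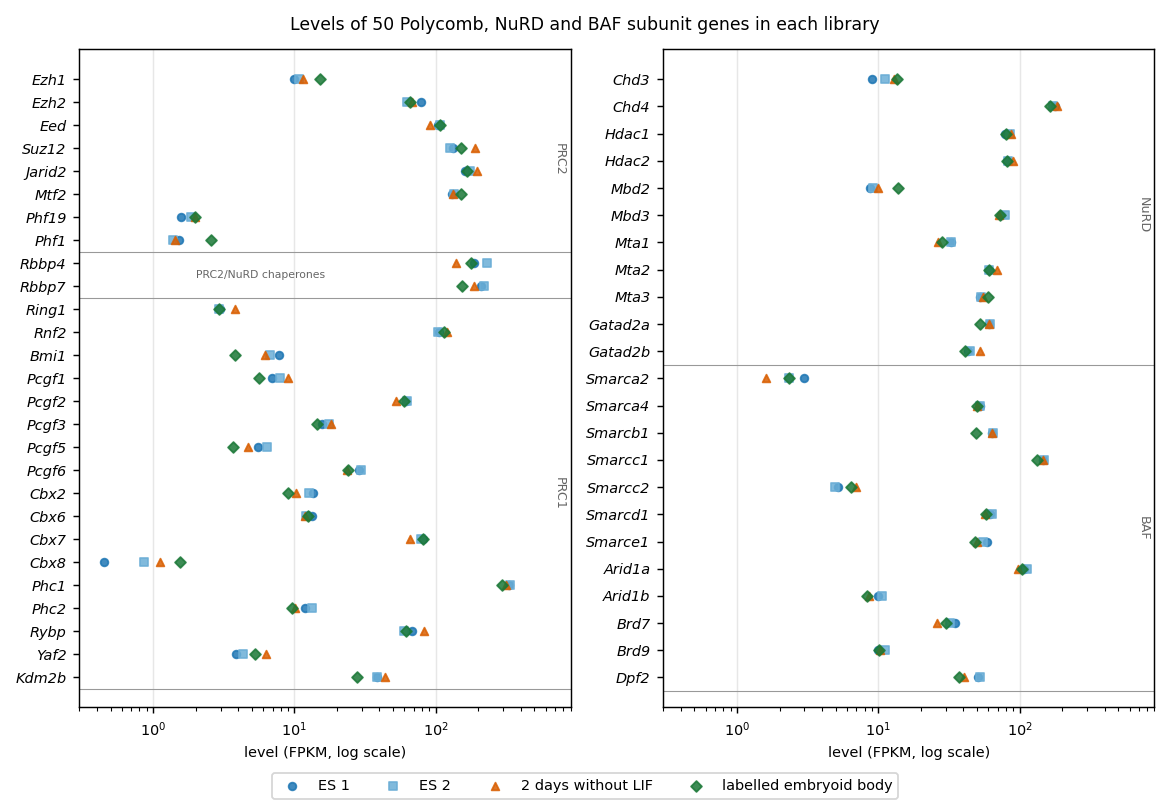
Level of each of the 50 subunit genes (FPKM, logarithmic axis) in the 4 libraries, 1 point per library, grouped by complex. For most genes the points nearly coincide, and within a family the abundant paralog stays abundant, as for Ezh2 over Ezh1 and Phc1 over Phc2; Cbx8 and Bmi1 show the widest spreads.

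No subunit gene met the main criterion in any comparison. A call in limma, fitted over 15676 genes, required a 2-fold change and a Benjamini-Hochberg adjusted p below 0.05. After LIF withdrawal 0 of 50 were called, against 7.67% of all tested genes. For the EB library 0 of 50 were called, against 0.396%, and between the EB and LIF withdrawal libraries 0 of 50, against 7.88%. At an unadjusted limma p under 0.05 the counts were 14, 16 and 11 genes, where 37.2%, 27.7% and 36.8% of all tested genes passed. The fit has 1 residual degree of freedom, and a p that misses the threshold does not show that levels were equal. In simulated data the fit over all genes detected none of the changes placed there, so its counts of 0 carry little weight. Changes were therefore also read by size, as FPKM + 1 lying 1.5-fold or more above, or below, ES 1 and ES 2 alike. By that measure 0 of 50 subunits stood apart after LIF withdrawal, against 17.4% of tested genes. In the EB library 1 did (Bmi1, lower), against 8.11%. Among the 29 subunit genes clear of other genes on the opposite strand, the counts were 0 and 1, against 9.39% and 7.39% of such genes.

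Median changes by complex stayed between -0.38 and 0.17 on the log2 scale. After LIF withdrawal the median log2 change was -0.02 over the subunits and 0.04 over all tested genes, and the median absolute change 0.19 and 0.26. The subunits spanned -0.57 to 0.54, and 21 lay above both ES libraries and 24 below, where 48.7% and 37.8% of tested genes did. In the EB library the median change was -0.08 against -0.01 and the median absolute change 0.18 against 0.20, with a span of -0.78 to 0.64. There 13 subunits lay above both ES libraries and 29 below, beside 41.3% and 43.7% of tested genes. By complex the median absolute change was largest for the shared chaperones (0.38 after LIF withdrawal and 0.35 in the EB library) and PRC1 (0.27 and 0.27), above that of all genes. The 12 BAF genes lay mostly below their ES mean, 11 of 12 in each derived library, beside 45.1% and 50.9% of all tested genes, at medians of -0.16 and -0.14. Some of these differences were negligible: Smarcc1 counts as below after LIF withdrawal at -0.00063, a sign that turned without ES 2. PRC1 had 13 of 17 genes below the ES mean in the EB library (median -0.17), and PRC2 had 6 of 8 above it (median 0.17), where 45.5% of all tested genes lay above. NuRD was near its ES level, at medians of 0.08 and -0.03. The plot of changes by complex sets these against the spread of all genes. Both comparisons use the same ES libraries, so likeness between them is not independent.

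**Figure D2:**
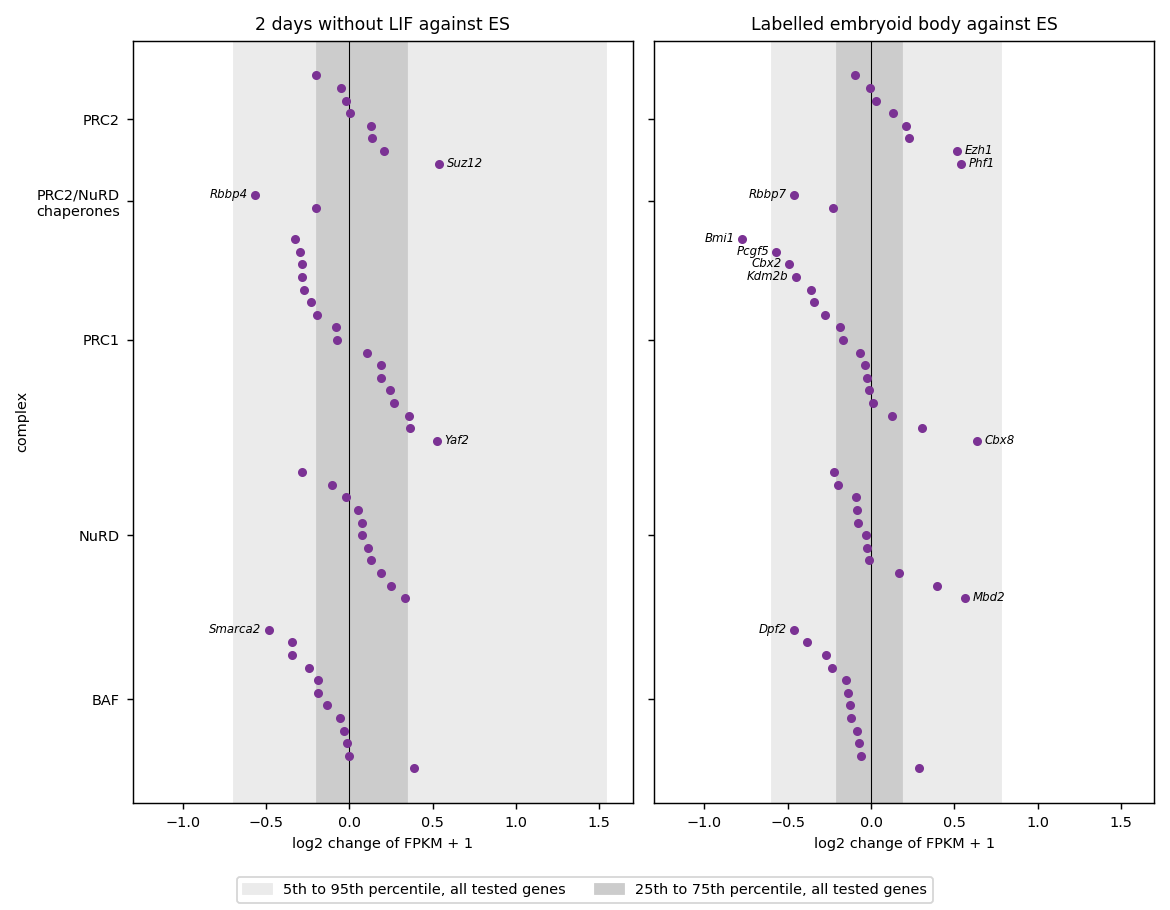
Change of each subunit gene on the log2(FPKM + 1) scale against the ES mean, sorted within each complex, 1 point per gene; dark grey covers the central range of all tested genes (25th to 75th percentile) and light grey the 5th to 95th. Genes beyond 0.44 are named; in the EB panel Bmi1 lies lowest, at -0.78, and is the one subunit outside the light band on the low side.

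Among the PRC2 catalytic subunits Ezh2, the main H3K27 methyltransferase of dividing cells, was at 78.7 and 62.2 FPKM in ES 1 and ES 2, 67.6 after LIF withdrawal and 65.3 in the EB library. Both derived values lay between the ES libraries. Ezh1, its paralog of resting cells, was at 10.01, 10.8, 11.5 and 15.3 FPKM in the same order. The EB library was the highest, 1.47 times the ES mean of 10.4 ± 0.526 FPKM (SD, n = 2). Its log2 change was 0.52 (SE 0.07), with a limma adjusted p of 0.149 over all genes. Ezh2 thus made up 88.7% and 85.3% of the summed EZH level in ES 1 and ES 2, 85.5% without LIF and 81.0% in the EB library.

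Suz12, the scaffold that PRC2 needs for activity, was at 133 and 126 FPKM in the ES pair, 189 after LIF withdrawal and 152 in the EB library. The LIF withdrawal library stood above all others, 0.54 over the ES mean on the log2 scale (SE 0.05, limma adjusted p = 0.0758). Eed, which reads H3K27 methylation and stimulates the enzyme, was at 103, 107, 91.3 and 107 FPKM and so did not follow Suz12. After LIF withdrawal one of these core subunits thus lay above both ES libraries and the other below them. A non-coding gene facing Suz12 on the opposite strand, Gm26563, was at 13.8 FPKM in that library and at 0.0519, 0.0204 and 0.112 in the others, and its part in the Suz12 value was not tested.

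PRC2 accessory factors decide where the complex binds. Jarid2, which anchors PRC2.2 in ES cells, was at 161, 176, 195 and 167 FPKM in ES 1, ES 2, the LIF withdrawal library and the EB library. Mtf2, the Polycomb-like factor that brings PRC2 to CpG islands, was at 130, 134, 132 and 152 FPKM. Its change in the EB library was 0.21 (SE 0.04, limma adjusted p = 0.164). Phf19 and Phf1, the other Polycomb-like factors, were far lower. Phf19 ranged from 1.58 to 1.98 FPKM. Phf1 was at 1.51 and 1.39 FPKM in the ES pair, 1.42 after LIF withdrawal and 2.56 in the EB library, the only library apart from the rest. It lay 0.54 above the ES mean there on the log2 scale (SE 0.06, limma adjusted p = 0.141). Its exons overlap those of Cuta on the opposite strand over 39.3% of their length, and Cuta was at 21.6, 22.1, 27.6 and 34.9 FPKM, also highest in the EB library. Whether Cuta fragments entered the Phf1 value was not tested. Mtf2 held 97.1 to 97.7% of the summed Polycomb-like level in every library.

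The histone chaperones Rbbp4 and Rbbp7 bind histones for both PRC2 and NuRD. Rbbp4 was at 187 and 231 FPKM in the ES pair, 140 after LIF withdrawal and 178 in the EB library. Both derived libraries lay below the ES pair, but the pair itself was spread, at 209 ± 31.1 FPKM (SD, n = 2), and the LIF withdrawal change of -0.57 (SE 0.20) had a limma adjusted p of 0.221. Rbbp7 was at 208, 218, 185 and 154 FPKM, lowest in the EB library, where its change was -0.46 (SE 0.05, limma adjusted p = 0.141).

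Ring1 and Rnf2 are the alternative E3 ligases of every PRC1 form. Rnf2 was at 106, 104, 120 and 115 FPKM and Ring1 at 2.99, 2.93, 3.78 and 2.93 FPKM in ES 1, ES 2, the LIF withdrawal library and the EB library. Rnf2 held 97.0 to 97.5% of their sum in all 4.

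The 6 PCGF proteins define the forms of PRC1: Pcgf2 and Bmi1 the canonical ones, and Pcgf1, Pcgf3, Pcgf5 and Pcgf6 variant ones. Bmi1 (ENSMUSG00000026739.13, chr2:18677018-18686629, mm10) was at 7.72 and 6.70 FPKM in ES 1 and ES 2, 6.16 after LIF withdrawal and 3.78 in the EB library. These values rest on about 966, 703, 443 and 397 fragments. The EB value was 0.525 of the ES mean of 7.21 ± 0.723 FPKM (SD, n = 2) and below every other library. On the log2 scale it was -0.78 (SE 0.13), with a limma adjusted p of 0.160 over all genes. Pcgf2, by contrast, was at 61.9, 62.3, 52.7 and 59.3 FPKM, and its EB change was -0.06 (SE 0.02, limma adjusted p = 0.250). The Bmi1 share of the PCGF sum was 6.11% and 5.13% in the ES pair, 5.40% after LIF withdrawal and 3.41% in the EB library.

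The variant PCGF genes did not share 1 pattern. Pcgf1, the subunit of the KDM2B form that binds unmethylated CpG islands, was at 6.95, 7.91, 8.96 and 5.65 FPKM. It was highest after LIF withdrawal and lowest in the EB library, at changes of 0.24 (SE 0.12) and -0.34 (SE 0.12) with limma adjusted p of 0.303 and 0.263. Kdm2b, the CpG-binding partner in that form, was also highest after LIF withdrawal and lowest in the EB library: 38.5, 38.2, 43.9 and 27.7 FPKM. Between the derived libraries Kdm2b fell by 0.64 on the log2 scale in the EB library (SE 0.03, limma adjusted p = 0.0357), the one subunit below an adjusted p of 0.05 with no fold limit over all genes, where 10% of genes passed. Each side of that comparison is 1 library. Kdm2b also faces Rnf34 and A930024E05Rik on the opposite strand.

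Pcgf6, whose PRC1 form represses germline genes, was at 28.5, 29.6, 23.5 and 23.9 FPKM, lower in both derived libraries than in either ES library, at -0.29 (SE 0.04, limma adjusted p = 0.0992) and -0.27 (SE 0.04, adjusted p = 0.153). Pcgf5 was at 5.53, 6.37, 4.70 and 3.68 FPKM, lowest in the EB library, at -0.57 (SE 0.13, limma adjusted p = 0.188). Its close paralog Pcgf3 was at 15.8, 17.6, 18.1 and 14.5 FPKM. Rybp and Yaf2 are the alternative partners that stimulate variant PRC1. Yaf2 was at 3.87, 4.30, 6.32 and 5.28 FPKM, above both ES libraries in each derived one, and its LIF withdrawal change was 0.53 (SE 0.09, limma adjusted p = 0.121). Rybp was at 67.7, 59.8, 82.3 and 62.0 FPKM, with the EB value inside the ES pair.

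The CBX readers tie canonical PRC1 to H3K27 methylation. Cbx7, the reader of pluripotent cells, was at 81.5, 78.8, 66.2 and 80.9 FPKM in ES 1, ES 2, the LIF withdrawal library and the EB library. Only the LIF withdrawal value lay outside the ES pair, at -0.27 (SE 0.04, limma adjusted p = 0.0978). Cbx2 (ENSMUSG00000025577.7, chr11:119022962-119031270), a reader that compacts chromatin, was at 13.6, 12.6, 10.3 and 9.03 FPKM. Both derived libraries were below the ES pair, and the EB change was -0.49 (SE 0.08, limma adjusted p = 0.157). Cbx8, its neighbour on the chromosome (ENSMUSG00000025578.9, chr11:119036305-119040969), was at 0.450, 0.866, 1.11 and 1.56 FPKM, on about 52, 84, 74 and 151 fragments. It was 2.37 times the ES mean in the EB library, but the ES libraries were themselves 1.93-fold apart, and the change of 0.64 (SE 0.24) had a limma adjusted p of 0.280. Cbx6 was at 13.3, 12.0, 11.9 and 12.4 FPKM. Phc1 and Phc2, the polyhomeotic proteins that bridge PRC1 molecules, were lowest outside ES cells: Phc1 at 331, 333, 316 and 295 FPKM and Phc2 at 12.0, 13.3, 10.1 and 9.59.

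For NuRD the remodelling ATPase Chd4 was at 177, 172, 184 and 164 FPKM and its paralog Chd3 at 9.03, 11.2, 12.9 and 13.6. Hdac1 and Hdac2, the deacetylases, were balanced, at 79.4, 84.9, 86.5 and 80.2 FPKM and at 81.7, 83.1, 89.2 and 81.0. The MBD proteins exclude each other in the complex: Mbd2 binds methylated DNA, while mammalian Mbd3 largely does not and is required for ES cells to leave self-renewal. Mbd3 was at 74.0, 78.8, 71.1 and 72.1 FPKM. Mbd2 (ENSMUSG00000024513.16) was at 8.75 and 9.23 FPKM in the ES pair, 9.93 after LIF withdrawal and 13.8 in the EB library. The EB value was the highest, at 1.53 times the ES mean of 8.99 ± 0.340 FPKM (SD, n = 2), and its log2 change was 0.57 (SE 0.06, limma adjusted p = 0.141). Mbd3 changed by -0.08 (SE 0.06, adjusted p = 0.503) there. Mbd2 thereby held 10.6% and 10.5% of the MBD sum in the ES pair, 12.3% after LIF withdrawal and 16.03% in the EB library.

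Mta1, Mta2 and Mta3 are the alternative scaffolds that hold the NuRD deacetylases. Mta2 was at 60.5, 61.1, 69.5 and 60.3 FPKM and Mta3 at 52.4, 53.2, 54.9 and 59.3. Mta1 was at 32.5 and 32.7 FPKM in the ES pair, 26.6 after LIF withdrawal and 28.2 in the EB library, below the ES pair in both. Its LIF withdrawal change of -0.28 (SE 0.02) had a limma adjusted p of 0.0689, the lowest of any subunit in that comparison, equal with Dpf2. The bridging proteins Gatad2a and Gatad2b, which link the remodeller to the deacetylase module, were at 60.9, 61.6, 60.4 and 52.3 FPKM and at 43.2, 44.5, 52.4 and 41.1.

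BAF runs on one of 2 ATPases. Smarca4 (BRG1), the one ES cells depend on, was at 52.5, 52.0, 50.2 and 49.6 FPKM. Smarca2 (BRM) was at 3.0, 2.34, 1.61 and 2.34 FPKM, lowest after LIF withdrawal, at -0.48 (SE 0.18, limma adjusted p = 0.229). Smarca4 held 94.6 to 96.9% of their sum. The scaffold Smarcc1 (BAF155) of the ES cell complex was at 147, 149, 148 and 134 FPKM. Smarcc2 (BAF170), which joins in differentiated cells, was at 5.21, 4.93, 6.95 and 6.41 FPKM, above both ES libraries in each derived one, at 0.39 (SE 0.07, limma adjusted p = 0.119) and 0.29 (SE 0.07, adjusted p = 0.199). Smarcc1 still held 95.4% of the SMARCC sum in the EB library, from 96.6% and 96.8% in ES cells.

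Smarcb1, the core subunit (BAF47) that grips the nucleosome, was at 63.8, 64.9, 63.8 and 49.1 FPKM, and only the EB library was lower, at -0.38 (SE 0.03, limma adjusted p = 0.139). Dpf2, the double PHD-finger reader of histone acylation, was at 51.0, 52.1, 40.4 and 37.2 FPKM, below the ES pair in both derived libraries, at -0.34 (SE 0.03, limma adjusted p = 0.0689) and -0.46 (SE 0.03, adjusted p = 0.139). Its paralog Dpf1, known from the neuronal complex, was at 6.21, 5.33, 12.6 and 9.29 FPKM. Dpf2 made up 89.1% and 90.6% of the DPF sum in the ES pair, 75.8% after LIF withdrawal and 79.8% in the EB library, the widest shift in share of a leading BAF paralog. Neither Dpf1 nor Dpf2 was in the set clear of other genes on the opposite strand. What facing genes contributed to this shift was not tested. The ARID proteins that define canonical BAF kept their order: Arid1a at 108, 113, 96.7 and 104 FPKM and Arid1b at 10.02, 10.6, 8.54 and 8.34. Smarcd1 and Smarce1, further core subunits, were at 57.2 to 63.6 and 48.1 to 58.3 FPKM. Brd9 of the non-canonical complex was at 9.995 to 11.1 FPKM, and Brd7 of PBAF at 34.8, 32.3, 26.2 and 30.0.

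Subunit switches were looked for in 23 paralog pairs, as the log2 ratio of their FPKM within each library. Such a ratio does not depend on the library total, and it shows unequal change only. Not every pair is made of subunits that exclude one another, and Brd7 and Brd9 belong to different forms of BAF. A pair counted as moved when it lay at least 0.5 from both ES libraries, and no test was run, since an exact permutation test of 2 libraries against 1 cannot reach 0.05. After LIF withdrawal 2 pairs moved and in the EB library 5 did. For no pair with a clear leading paralog in ES cells was the order reversed. Rbbp7/Rbbp4 alone changed order in the EB library, at 0.15, -0.08, 0.40 and -0.20 in ES 1, ES 2, the LIF withdrawal library and the EB library, and the ES libraries already lay on both sides of 0.

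**Figure D3:**
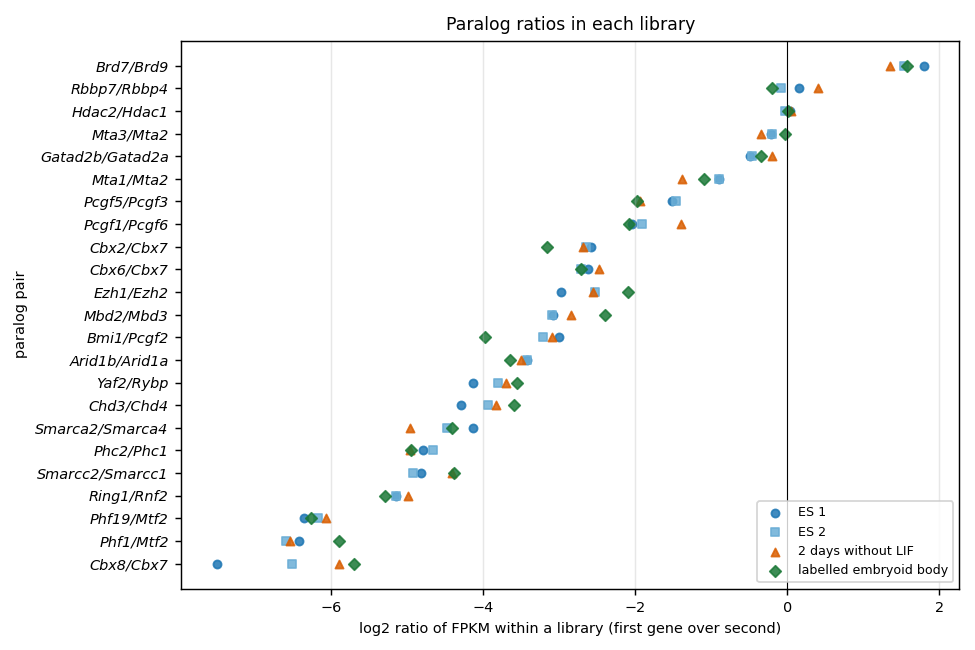
Log2 ratio of FPKM for each of the 23 paralog pairs in each library, 1 point per library, sorted by the ES mean; 0 is equal abundance. Pairs far from 0 keep their leading paralog in all 4 libraries, and the visible shifts are in Cbx8/Cbx7, Bmi1/Pcgf2, Mbd2/Mbd3, Phf1/Mtf2, Cbx2/Cbx7 and Pcgf1/Pcgf6.

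In the EB library the PRC1 ratios moved in both directions. Bmi1/Pcgf2 was -3.00 and -3.22 in the ES pair, -3.10 after LIF withdrawal and -3.97 in the EB library, so that Pcgf2 exceeded Bmi1 8.02-fold, 9.30-fold, 8.56-fold and 15.7-fold. Cbx2/Cbx7 was -2.58, -2.64, -2.69 and -3.16. Cbx8/Cbx7 was -7.50, -6.51, -5.90 and -5.70, higher in both derived libraries, with a gap of 0.99 between the ES libraries. Even in the EB library Cbx7 was 51.9 times as abundant as Cbx8, and it held 77.6% of the summed level of the 5 Polycomb CBX genes, against 74.3% and 74.99% in ES cells. Outside PRC1, Mbd2/Mbd3 was -3.08, -3.10, -2.84 and -2.39 and Phf1/Mtf2 was -6.42, -6.59, -6.54 and -5.89. Ezh1/Ezh2 was -2.97, -2.53, -2.55 and -2.09, which missed the limit against ES 2. After LIF withdrawal the other pair that moved was Pcgf1/Pcgf6, at -2.04, -1.90, -1.39 and -2.08, back at its ES value in the EB library.

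These values could include fragments of the opposite strand, since the labels do not say whether the kit records strand. Of the 50 subunit genes, 21 overlap a gene on the other strand and 29 do not. In a strand-clear set of 6808 tested genes limma called 0 of 29 subunits at 2-fold in each comparison. Of all genes in the set it called 3.04% (LIF withdrawal), 2.31% (EB library) and 4.44% (EB library against LIF withdrawal). The 0 was fixed in advance. A log2 change does not depend on which genes are fitted. On the log2(FPKM + 1) scale none of the 29 subunits changed 2-fold. With a pseudocount of 0.1 the Cbx8 change in the EB library was 1.19. At an unadjusted p under 0.05 were 11, 15 and 8 of the 29 subunits, beside 42.8%, 38.7% and 43.9% of strand-clear genes. With no fold limit, a setting chosen after the values were seen, 0 of 50 subunits passed in the EB library over all genes. In the strand-clear set 5 of 29 subunits (17.2%) passed there, close to the 14.3% of its genes. Of these Ezh1 and Mbd2 rose (limma adjusted p = 0.0460 and 0.0409), and Bmi1, Cbx2 and Smarcb1 fell (0.0446, 0.0491 and 0.0428). After LIF withdrawal 2 of 29 passed, against 22.0%: Yaf2 rose (0.0444) and Mta1 fell (0.0475). Between the derived libraries Smarcb1 passed, lower in the EB library (0.0392), against 21.6%.

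Some of the facing genes were high in the LIF withdrawal library alone. Of 25 genes opposite a subunit gene in the table, 16 reached 1 FPKM in some library, and 12 of those were highest after LIF withdrawal. At least 2-fold above each of the other libraries there were 9, facing 8 subunit genes. All of these 9 but Tmed5 reached 1 FPKM only in the LIF withdrawal library. The filter itself therefore favoured their being highest there, and the same shares over all genes were not counted. Gm26722, a non-coding gene facing Rbbp4, was at 63.9 FPKM there and at 0.142, 0.0834 and 0.127 in ES 1, ES 2 and the EB library. Gm18422, a pseudogene facing Rybp, was at 24.5 FPKM and listed at 0 in the others. Tmed5, a coding gene facing Mtf2, was at 22.7, 21.5, 51.5 and 18.7 FPKM. The subunits they face showed no common direction: after LIF withdrawal Rbbp4 lay below the ES pair, Rybp above it and Mtf2 inside it. The part of the facing genes in these values was not tested.

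**Figure D4:**
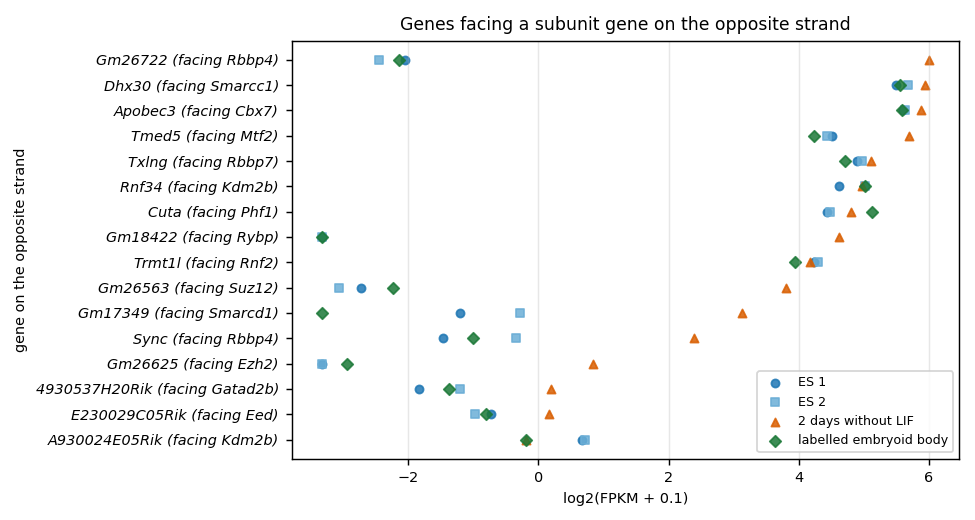
Level of the 16 genes that face a subunit gene on the opposite strand and reach 1 FPKM in a library, on the log2(FPKM + 0.1) scale, 1 point per library; the subunit gene is in brackets. The LIF withdrawal points lie to the right of the others for 12 of the 16, furthest for Gm26722 and Gm18422.

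A list of 45 further subunits of the same complexes was set beside these genes. Of the 45, 44 were matched and 42 tested, and limma called 0 at 2-fold over all genes in each comparison. At an unadjusted p under 0.05 stood 12 of 42 after LIF withdrawal, 13 in the EB library and 22 between the derived libraries, beside the 37.2%, 27.7% and 36.8% of all tested genes. In the strand-clear set with no fold limit, 3, 4 and 7 of 21 passed, beside 22.0%, 14.3% and 21.6% of genes. The 7 that differed between the derived libraries were Aebp2, Bcor, Bcorl1, Kdm6a, Scmh1, Ss18 and Usp7, where 1 of the 29 genes of the main list had passed. Whether the lists differ was not tested. By the 1.5-fold size rule 2 of 42 stood apart after LIF withdrawal, beside 17.4% of tested genes, both higher: Dpf1, given above, and Bcorl1, a corepressor of the PCGF1 form of PRC1. Bcorl1 was at 4.14, 3.58, 7.22 and 2.32 FPKM, and in the strand-clear set its difference between the EB and LIF withdrawal libraries was -1.31 (limma adjusted p = 0.0232). In the EB library 0 of 42 stood apart by that rule, beside 8.11%. Usp7, a deubiquitinase of variant PRC1, was among the most abundant, at 174, 161, 147 and 214 FPKM. Auts2, a subunit of PRC1 forms that can activate genes, split the libraries differently, at 16.6 and 84.2 FPKM in ES 1 and ES 2, 88.0 after LIF withdrawal and 15.1 in the EB library, so no difference from ES cells can be read for it.

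Most of 22 known Polycomb target genes were low, as were most of all deposited genes. Of the 22, 16 were under 1 FPKM in all 4 libraries, among them Gata4, Gata6, Sox17 and Hand1, lineage factors of endoderm and mesoderm. Of all 47633 genes, only 15676 reached 1 FPKM in any library. Over all genes limma called 0 of the 6 tested targets in each comparison, with 5, 5 and 1 at an unadjusted p under 0.05 after LIF withdrawal, in the EB library and between the derived libraries. The shares of all tested genes were 37.2%, 27.7% and 36.8%. By the size rule 3 of 6 stood apart after LIF withdrawal, beside 17.4% of tested genes. Cdkn2b, a cell cycle inhibitor of the Ink4 locus, was at 2.11, 1.83, 5.03 and 4.12 FPKM, above both ES libraries in each derived one. In the strand-clear set its LIF withdrawal change was 1.02 (limma adjusted p = 0.0243), the only target gene called there. Its neighbour Cdkn2a was at 2.20, 1.99, 2.65 and 3.13 FPKM. Nkx2-2, a neural factor, was at 0.395, 0.220, 1.55 and 0.806 FPKM, and Pax6, another, at 2.44, 2.21, 0.792 and 1.52, so these went in opposite directions. Only the LIF withdrawal value brought Nkx2-2 past the 1 FPKM filter, so the filter itself favoured its being counted as higher there. In the EB library Cdkn2b and Cdx2 stood apart by the size rule, 2 of 6, beside 8.11% of tested genes. Cdx2, the trophectoderm factor, was at 1.02, 0.786, 0.205 and 0.0345 FPKM, lowest in the EB library. It passed the filter only through ES 1, which favoured its being counted as lower in the derived libraries.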

How the data were processed

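Total RNA libraries were sequenced from ES cells (n = 2), cells 2 days without LIF (n = 1) and a library labelled embryoid body after 5 days (n = 1). The values used are the FPKM that the authors deposited, 1 per gene and library. Per the submitters' processing notes, Trimmomatic 0.36, STAR, Cufflinks and the mm10 build were used. Roles, options, annotation release and strand use of the counting were not given in the sources used here. Of 47633 identifiers, 47219 matched GENCODE mouse release M21, which gave positions and overlaps on mm10. That release need not be the one behind the FPKM. Depth was inferred by taking the commonest small product of exon length and FPKM as 1 fragment, so fragment numbers per gene are approximate. Promoters came from RefSeq (GRCm38.p6).

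The 15676 genes that reached 1 FPKM in any library entered limma 3.58.1 as log2(FPKM + 1) (R 4.3.3, moderated with a trend, all 4 libraries in 1 model). The 1 residual degree of freedom came from the ES pair. Adjusted p-values are Benjamini-Hochberg over all genes fitted. Log2 changes are on the log2(FPKM + 1) scale, which understates changes of low genes. Strand-clear genes (6808) were protein-coding or long non-coding, with at least 1000 nt of exons and no gene on the opposite strand, and were fitted separately. The members, lists, pairs and rules were chosen with earlier results of these data known. Statistics were given for subunits that were called, met the 1.5-fold size rule or belonged to a moved pair. Up to 6 genes of each other list were to be named, those called or meeting the size rule first. The statistics of Ezh1, Ezh2, Suz12, Rbbp4, Rbbp7, Pcgf5, Rybp, Yaf2 and Kdm2b were added after their values were seen. So were those of Mta1, Mta2, Smarca2, Smarcb1, Smarcc1, Smarcc2 and Dpf2, and the names of some list genes. Family shares were also added then. Alternatives were another pseudocount, filter, scaling, gene set and fold limit, a fit without the trend, and leaving out each ES library. The fits were tested on simulated data with changes placed in the EB library only. The fit over all genes detected none of them, so a count of 0 from it carries little weight; the strand-clear fit detected nearly all large changes and a minority of 1.5-fold ones. Python 3.11.15 with pandas 2.3.3, numpy 2.4.6 and matplotlib 3.10.9 was used for the rest.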

Additional observations from a re-analysis of the deposited data

How the results depend on the processing

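Over all genes the count of subunits called at 2-fold was 0 in each comparison under every pseudocount, filter at 5 FPKM, scaling, strand-clear and no-trend alternative run. The filter, strand-clear and no-trend fits leave each log2 change as it was. No subunit changed 2-fold on the log2(FPKM + 1) scale, so their counts of 0 were fixed in advance. With no fold limit (added after values were seen) the count over all genes was 1 for the EB library against LIF withdrawal. Over strand-clear genes it was 2, 5 and 1 in the 3 comparisons. With no filter on low values the limma fit was void and gave no count, and with 1 ES library left out no residual degrees of freedom remained, so those values carry no test. The 1.5-fold count was 1 to 2 after LIF withdrawal when an ES library was left out: Rbbp4 without ES 1, and Yaf2 and Smarca2 without ES 2. For the EB library it was 3 with a pseudocount of 0.1 (Phf1, Cbx8 and Bmi1), 0 at 2-fold, and 2 to 3 leaving out an ES library: Bmi1 and Pcgf5 without ES 1, and Bmi1, Cbx8 and Mbd2 without ES 2. With a pseudocount of 1, 0 paralog pairs moved after LIF withdrawal and 2 in the EB library (Mbd2/Mbd3 and Bmi1/Pcgf2). Leaving out an ES library gave 3 and 3, and 7 to 8. The cause was not tested. Small changes reversed sign: Mtf2 after LIF withdrawal (-0.024 with median-of-ratios and -0.018 with upper-quartile scaling) and Mta2 in the EB library (0.023 and 0.025). Without one or the other ES library, changes after LIF withdrawal ran from -0.22 to 0.12 for Ezh2, -0.016 to 0.028 for Mtf2, -0.057 to 0.016 for Phf1 and -0.011 to 0.0098 for Smarcc1. In the EB library they ran from -0.27 to 0.068 for Ezh2, -0.011 to 0.037 for Cbx7, -0.13 to 0.052 for Rybp and -0.26 to 0.0010 for Smarca2. No paired analysis was possible because only the ES libraries carry replicate numbers. Single derived libraries and 1 residual degree of freedom limit all tests.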
